A study of Mus musculus with 2 samples.

Results

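Wnt-high arterial endothelium is the group of aortic endothelial cells that carry arterial genes together with high expression of Wnt target genes. Cells were taken as Wnt-high arterial endothelium (AE) where the deposited table of cells gave them that class, and no measured value was used to choose them here. The class held 1041 of 8405 cells, of which 467 of 4451 came from the wild-type library and 574 of 3954 from the SP3-null library. Of 5 cell barcodes that occur in both libraries, 1 belonged to Wnt-high AE in either library. The classes that the study distinguished beside it are Wnt-low AE, conflux AE (where the Wnt-high and Wnt-low branches meet), pre-hemogenic endothelium (pre-HE), hemogenic endothelium (HE), intra-aortic cluster cells (IAC), Wnt-high and Wnt-low venous endothelium (VE) and other endothelium, 9 classes in all.

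Canonical Wnt ligands bind Frizzled receptors with LRP5 or LRP6, which keeps beta-catenin from being degraded, and beta-catenin then turns on target genes together with TCF and LEF factors. Several targets, such as Axin2 and Nkd1, feed back and dampen the signal, so their transcripts are widely used as a readout of the pathway. In the vessels of the central nervous system the same pathway drives the blood-brain barrier, a set of transporters, tight junction proteins and transcription factors that controls what passes from blood to brain.

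The study captured cells with endothelial markers from around the dorsal aorta of day 10.5 mouse embryos, when blood cells emerge from the arterial wall, with and without the transcription factor SP3. Sp3 heterozygous parents (allele Sp3 tm1Sus, strain C57Bl6/J x B6129SF1/J) were mated, and cells of wild-type and of SP3-null embryos were each pooled before sorting. Sorted cells were negative for Ter119, low or negative for CD41, and positive for CD31, CD144 and ESAM, and 1 library per genotype was captured with the 10x Chromium 3' version 3 kit, which counts transcripts by unique molecular identifiers (UMIs). With 1 library per genotype nothing was tested, and the genotype, the pool of embryos and the library cannot be told apart. The allele is carried by the whole embryo and not by endothelium alone.

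Levels are in CPM, a gene's UMIs summed over the cells of a class and scaled to 1000000 UMIs for that class and library. Where a pair of values is given, the first is wild-type and the second SP3-null, and a ratio between the libraries is SP3-null over wild-type. All intervals are at the 95% level and cover counting error only, since cells of 1 pool are not replicates. Wnt-high AE held 7326495 and 8877031 UMIs, and its median cell 13401 and 13225. The median mitochondrial share was 6.55% and 6.22%. Classes were assigned by the authors from the same transcripts, so differences between classes are given as a description.

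The 4 marker genes were higher than in Wnt-low AE in both libraries, which the assignment of classes from the same transcripts partly fixes. By RefSeq (GRCm38.p6) Nkd1 lies at chr8:88521342-88594887, Lef1 at chr3:131110297-131224357, Axin2 at chr11:108917828-108950783 and Car4 at chr11:84957754-84966054, and 3' reads sample the end of their transcripts. Nkd1, which binds Dishevelled and inhibits Wnt signaling, stood at 90.2 and 130 CPM, against 4.87 and 3.60 CPM in Wnt-low AE. In Wnt-high VE Nkd1 was at 43.8 and 61.5 CPM, so that it was higher in the arterial than in the venous Wnt-high class in either library. After each cell was thinned to 5000 UMIs, 31.2% (26.6% to 36.1%) of wild-type and 42.6% (38.2% to 47.1%) of SP3-null Wnt-high AE cells held an Nkd1 UMI, and 1.27% and 1.66% of Wnt-low AE cells did. Lef1, a DNA-binding partner of beta-catenin, was at 172 and 182 CPM against 46.8 and 68.1 CPM in Wnt-low AE. Axin2, a scaffold of the complex that degrades beta-catenin, was at 18.7 and 19.2 CPM against 3.25 and 3.22 CPM. Car4, a membrane-bound carbonic anhydrase of capillary endothelium, was at 7.23 and 27.3 CPM against 0.676 and 2.28 CPM. Car4 was thus low in the wild-type class and had the widest gap between the libraries of the 4 markers.

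The arterial part of the label was less uniform. Gja4, an arterial gap junction protein, stood at 299 and 265 CPM in Wnt-high AE against 33.6 and 16.8 CPM in Wnt-high VE, and Hey1, a Notch effector, at 60.5 and 65.3 CPM against 10.1 and 8.35 CPM. Of 19 arterial genes with at least 50 UMIs in the compared classes, all 19 had higher levels in Wnt-high AE than in Wnt-high VE in both libraries, and 12 of them differed by 1 log2 unit or more in both. Over all 9732 such genes, 46.3% were higher in both libraries and 2.4% by that much. Gja5, which marks mature arterial endothelium, was nearly missing at 2.05 and 1.58 CPM (15 and 14 UMIs), against 377 and 356 CPM in conflux AE. The venous regulator Nr2f2 was at 50.2 and 39.0 CPM against 102 and 102 CPM in Wnt-high VE and 8.45 and 15.5 CPM in conflux AE. Summed over the list, arterial genes stood at 1720 and 1687 CPM in Wnt-high AE and 1800 and 1817 CPM in Wnt-low AE. Most genes of this list also served the authors to tell AE from VE, so the arterial difference between these classes is partly built in.

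Markers of other cells were scarce apart from globins and the neural genes Nes and Stmn2, and their part in the results was not tested. In wild-type and SP3-null Wnt-high AE, 14 macrophage genes summed to 6.28 and 6.20 CPM, 14 epithelial genes to 0.955 and 0.901 CPM, and 17 mesenchyme genes to 12 and 16.7 CPM. The 15 neural genes summed to 231 and 231 CPM, of which Nes (173 and 156 CPM) and Stmn2 (53.4 and 70.4 CPM) made up most, while 6 and 5 of the 15 were at 0. Erythroid genes summed to 56.8 and 97.4 CPM, mostly the embryonic globins Hbb-y and Hba-x, and 4 and 3 of 12 were at 0. Pan-endothelial genes summed to 7960 and 7641 CPM. Runx1, which defines hemogenic endothelium, was at 1.36 and 1.46 CPM (10 and 13 UMIs).

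**Figure D1:**
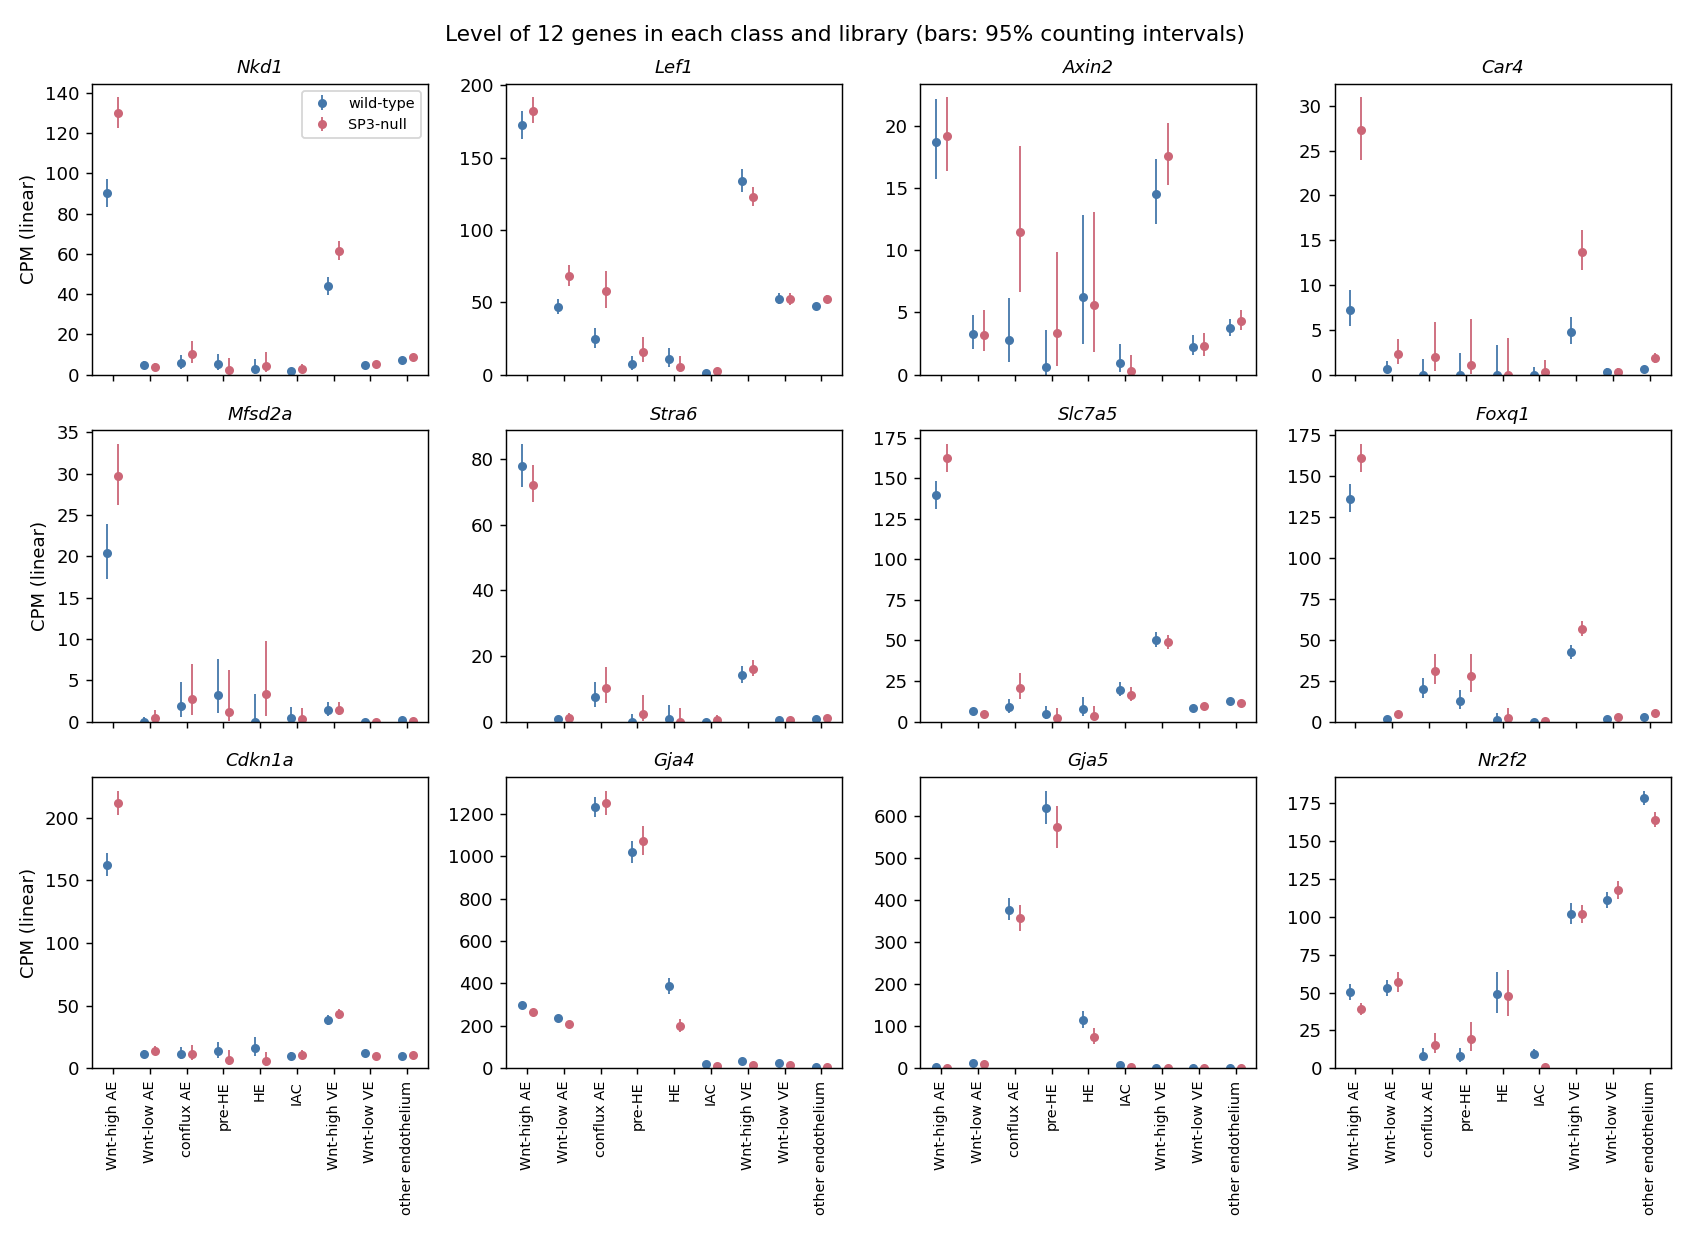
Level of 12 genes in CPM (linear axis from 0) in the 9 classes, blue for wild-type and red for SP3-null, with bars for 95% counting intervals. Nkd1, Lef1, Mfsd2a, Stra6, Slc7a5, Foxq1 and Cdkn1a were highest in Wnt-high AE in both libraries, while Gja5 was near 0 there and at 377 and 356 CPM in conflux AE.

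Wnt-high AE made up a larger part of the arterial cells of the SP3-null library. It accounted for 467 of 939 wild-type and 574 of 922 SP3-null cells of Wnt-high and Wnt-low AE together, a difference of 12.5 points (7.95 to 17.0). Conflux AE and pre-HE were left out of these counts. Against all cells captured, its share was 10.5% (9.61% to 11.4%) and 14.5% (13.4% to 15.7%), a difference of 4.02 points (2.59 to 5.47). Among the Wnt-high cells of both vessel types, however, the arterial share was 47.9% and 50.4%, and the interval of the difference of 2.45 points (-1.89 to 6.78) included 0.

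To describe what sets Wnt-high AE apart within the arterial wall, it was compared with Wnt-low AE in each library. Of 8240 genes with at least 100 UMIs in the 2 classes of each library, 173 (2.1%) were higher by at least 1 log2 unit in both libraries and 49 (0.595%) were lower. The highest ratios belonged to genes known from brain endothelium. Mfsd2a, the transporter of lysophosphatidylcholine with docosahexaenoic acid at the blood-brain barrier, stood at 20.3 CPM (149 UMIs) in wild-type Wnt-high AE and had no UMI in wild-type Wnt-low AE, which makes it at least 50.1-fold higher against a floor of 3 UMIs. In the SP3-null library Mfsd2a was at 29.7 CPM, with 2 UMIs in Wnt-low AE (log2 ratio 6.29, 4.43 to 9.35). Spock2, a proteoglycan of the extracellular matrix also called testican-2, was at 48.7 and 50.2 CPM, with 3 UMIs in wild-type Wnt-low AE (log2 ratio 6.91, 5.35 to 9.19) and none in SP3-null Wnt-low AE, against which Wnt-high AE was at least 88.3-fold higher. Stra6, the cell surface receptor that takes up retinol, was at 77.9 and 72.3 CPM against 0.676 and 1.14 CPM. These are sums over the class, and a UMI was found in 17.99% and 21.4% of Wnt-high AE cells for Mfsd2a, 29.1% and 31.7% for Spock2, and 44.5% and 40.9% for Stra6.

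Transcription factors and transporters followed. Foxf2 stood at 40.7 and 48.0 CPM against 0.541 and 0.759 CPM in Wnt-low AE, and Foxq1 at 136 and 161 CPM against 1.62 and 4.36 CPM. Both are forkhead factors of endothelium of the central nervous system. Slc7a5, which takes large neutral amino acids across the barrier as a dimer with Slc3a2, was at 140 and 162 CPM against 6.36 and 4.55 CPM, and Slc3a2 itself at 199 and 244 CPM against 56.4 and 54.6 CPM. Lsr, a protein of tricellular junctions, was at 13.8 and 13.5 CPM against 3 and 0 UMIs. The serine protease Htra3 was at 59.8 and 63.5 CPM against 0.676 and 1.33 CPM, and the secreted protein Igfbp7 at 163 and 217 CPM against 6.09 and 7.21 CPM. Rassf9 and Ccdc141 were also among the 12 highest, with log2 ratios of 4.64 and 5.03, and 4.54 and 5.51.

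Promoter sequences of these genes were examined for the core of the TCF/LEF motif, CTTTGA, and for the GC box GGGCGG, which SP factors are known to bind, on both strands of the 250 bases before each RefSeq start (GRCm38.p6). The 2 motifs can share at most a single end base. For 8 of the 12 highest genes the table held 11 windows, and 5 of these (45.5%), 1 each of Spock2, Mfsd2a, Stra6, Lsr and Ccdc141, held the TCF/LEF core. Over all 32851 windows of the table the share was 13.8%, and over windows of genes with at least 100 UMIs in Wnt-high AE 9.97%. Of 22 windows of Wnt feedback and target genes 4 (18.2%) held it. The windows of Spock2, Mfsd2a and Stra6 are shown since these genes were among those with the highest ratios of class sums over Wnt-low AE, and that of Axin2 since it is the classical Wnt target and has 2 GC boxes but no core here. Each runs 5' to 3' on the strand of the gene and ends at the base before the start. Capitals mark matches to the TCF/LEF core (CTTTGA or its complement TCAAAG) and to the GC box (GGGCGG or its complement CCGCCC), which are matches of letters and not shown binding sites.
Spock2 (chr10:60106007-60106256, + strand): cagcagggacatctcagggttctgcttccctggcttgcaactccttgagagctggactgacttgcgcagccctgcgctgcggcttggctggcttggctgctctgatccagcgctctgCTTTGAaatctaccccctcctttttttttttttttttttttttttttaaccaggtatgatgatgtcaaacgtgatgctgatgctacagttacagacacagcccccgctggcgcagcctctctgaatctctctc
Mfsd2a (chr4:122961189-122961438, - strand): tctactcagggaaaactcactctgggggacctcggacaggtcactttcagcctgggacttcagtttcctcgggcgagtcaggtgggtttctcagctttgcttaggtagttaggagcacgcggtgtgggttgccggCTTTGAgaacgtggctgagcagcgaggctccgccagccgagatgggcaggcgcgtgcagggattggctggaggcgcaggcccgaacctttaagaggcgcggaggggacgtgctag
Stra6 (chr9:58129099-58129348, + strand): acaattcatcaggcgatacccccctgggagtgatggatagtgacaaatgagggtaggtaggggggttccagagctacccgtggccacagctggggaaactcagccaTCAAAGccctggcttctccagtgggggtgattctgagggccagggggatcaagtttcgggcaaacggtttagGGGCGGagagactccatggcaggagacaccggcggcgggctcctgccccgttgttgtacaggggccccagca
Axin2 (chr11:108920099-108920348, + strand): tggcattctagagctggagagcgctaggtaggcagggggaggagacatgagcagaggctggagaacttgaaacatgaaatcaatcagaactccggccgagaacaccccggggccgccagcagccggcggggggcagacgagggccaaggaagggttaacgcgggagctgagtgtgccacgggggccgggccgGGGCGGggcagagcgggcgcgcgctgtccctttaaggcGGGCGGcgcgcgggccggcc
The core lay 133 bases before the start in Spock2, 115 in Mfsd2a and 144 in Stra6, where a GC box stands nearer to the start. Stra6 had 3 other windows in the table, without the core.

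The barrier program as a whole was high. Of 28 brain-type barrier and transporter genes, 23 had at least 50 UMIs in the compared classes of either library, and 15 of these 23 were higher by at least 1 log2 unit in both libraries, where the background was 2.31% of 9484 genes. This count is partly built in, since the list holds the markers Car4 and Lef1. Some members also reached the minimum mainly through Wnt-high AE, such as Car4 with 53 UMIs against 5 in wild-type Wnt-low AE. The same limits apply to this list against the other classes below. Over the members measured in each library, the median log2 ratio was 2.24 and 2.16, against 0.01 and 0.00 over all genes. Tfrc, the transferrin receptor, stood at 189 and 220 CPM against 16.6 and 15.4 CPM in Wnt-low AE. Slc2a1, the glucose transporter GLUT1, was at 495 and 588 CPM against 277 and 345 CPM, and the drug efflux pump Abcb1a at 13.9 and 21.4 CPM against 1.76 and 2.47 CPM. Of the 23, 1 was lower in both libraries, Slc16a1. Slc16a1, a monocarboxylate transporter, was at 7.37 and 8.11 CPM against 10.1 and 10.4 CPM, and the efflux pump Abcg2 was about level at 188 and 185 CPM against 179 and 190 CPM.

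Barrier genes also exceeded those of Wnt-high VE, the venous class with high Wnt targets, although Nkd1 was lower there. The list's median log2 ratio was 1.03 and 1.12, with 12 of 23 measured members higher by 1 log2 unit in both. Mfsd2a was at 1.38 and 1.44 CPM in Wnt-high VE, a log2 ratio of 3.88 (3.03 to 4.86) and 4.37 (3.65 to 5.20). Spock2 was at 2.54 and 2.33 CPM there, and Foxq1 at 42.4 and 56.5 CPM. Wnt feedback and target genes had medians of 0.36 and 0.19 between these classes, so that both lists were higher in the arterial one. Over all genes, 172 of 8550 (2.01%) were higher than in Wnt-high VE by 1 log2 unit in both libraries and 16 (0.187%) were lower, and among genes with at least 50 UMIs 0.257% were lower. Beside arterial genes such as Cxcr4 and Cxcl12 (19.8 and 30.8 CPM against 0.577 and 0.359 CPM), the highest ratios over Wnt-high VE included Apod, a secreted lipocalin, at 22.2 and 29.0 CPM against 1.50 and 1.62 CPM. Among the lowest were Phgdh, Tgm2, Gap43, Pmp22 and Lpar1, with the myelin protein gene Pmp22 at 28.5 and 34.8 CPM against 70.8 and 93.1 CPM.

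Conflux AE, the class that Wnt-high and Wnt-low AE lead into, lay further from Wnt-high AE in arterial genes. Of 7436 genes with at least 100 UMIs, 198 (2.66%) were higher in Wnt-high AE by 1 log2 unit in both libraries and 185 (2.49%) were lower, and with at least 50 UMIs the shares were 2.97% and 2.96%. Nkd1 was at 5.63 and 10.1 CPM in conflux AE and Stra6 at 7.51 and 10.1 CPM. Of 20 measured arterial genes 19 were lower in Wnt-high AE in both libraries and 14 passed 1 log2 unit, where 35.2% of all genes were lower in both and 38.8% higher, with Hey1 at 60.5 and 65.3 CPM against 275 and 252 CPM. Of 23 barrier genes 16 were higher and 5 lower in both libraries. Slc2a1 was lower in Wnt-high than in conflux AE, at 495 and 588 CPM against 688 and 1072 CPM, and the tight junction gene Ocln had only 8 and 10 UMIs in Wnt-high AE.

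Of 27 Wnt feedback and target genes, 14 were measured against Wnt-low AE, and 7 were higher by at least 1 log2 unit in both libraries. Of all 9484 genes measured in this way 2.31% were. The median log2 ratio of the list was 1.32 and 1.18. The study told these classes apart by their Wnt target levels, so this difference is partly built in. Besides the markers, Tcf7, which encodes the factor TCF1, stood at 46.5 and 43.3 CPM against 9.47 and 10.2 CPM, and Tnfrsf19, a receptor of the tumor necrosis factor family, at 43.0 and 54.6 CPM against 5.81 and 5.31 CPM. Znrf3, a ubiquitin ligase that removes Frizzled from the surface, was at 11.6 and 10.0 CPM against 3.25 and 4.17 CPM. Targets that proliferating cells of many kinds use did not follow this pattern. Ccnd1, cyclin D1, was at 216 and 202 CPM against 289 and 272 CPM, and Myc at 8.19 and 4.28 CPM against 9.47 and 8.34 CPM.

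Receptors of the pathway differed less than its targets. Fzd10 stood at 79.6 and 57.1 CPM against 32.2 and 29.0 CPM in Wnt-low AE, and Fzd6 at 36.6 and 31.9 CPM against 10.5 and 8.72 CPM. Fzd4, the receptor for norrin in retinal vessels, went the other way at 30.2 and 27.5 CPM against 46.4 and 41.5 CPM. The co-receptors Lrp5 (16.2 and 14 CPM), Lrp6 (61.8 and 56.2 CPM), Adgra2 (24.2 and 25.1 CPM) and Reck (11.3 and 12.3 CPM) were near their levels in Wnt-low AE, of 14.3 and 15.4, 58.3 and 62.4, 24.3 and 22.6, and 12.2 and 12.3 CPM. Adgra2 and Reck form the receptor complex for Wnt7 ligands in brain vessels. Ctnnb1, beta-catenin itself, was at 419 and 440 CPM against 415 and 409 CPM.

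Wnt-high AE carried fewer transcripts of dividing cells than Wnt-low AE and Wnt-high VE, and more than conflux AE. All 21 mitosis genes stood below their level in Wnt-low AE in both libraries, with median log2 ratios of -0.33 and -0.49, where 34.9% of all genes were lower and 37.5% higher. All 21 also stood below Wnt-high VE, as did 33.6% of all genes. Against conflux AE all 21 stood higher, with medians of 1.40 and 0.79, and 38.8% of all genes did. DNA replication genes had medians of -0.17 and -0.23 against Wnt-low AE. Cdkn1a, the cell cycle inhibitor p21, stood at 163 and 212 CPM against 11.8 and 14 CPM in Wnt-low AE and 38.3 and 43.5 CPM in Wnt-high VE. In cells thinned to 5000 UMIs, Cdkn1a was found in 45.4% (40.3% to 50.5%) of wild-type and 48.1% (43.6% to 52.6%) of SP3-null Wnt-high AE cells, against 3.81% and 5.98% of Wnt-low AE cells. Cdkn1a was among 43 genes (0.493% of 8715) that were highest in Wnt-high AE of all 9 classes and at least 2-fold above the next class in both libraries. Cdkn1c, p57, which is high in conflux AE, was lower in Wnt-high than in Wnt-low AE, at 405 and 387 CPM against 653 and 715 CPM.

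The Notch ligand Jag1 stood at 100 and 107 CPM in Wnt-high AE against 12 and 13.7 CPM in Wnt-low AE. Dll4, the other main Notch ligand of arteries, was at 47.0 and 50.1 CPM against 64.4 and 61.6 CPM, so that the ligands went in opposite directions in both libraries. The lowest ratios over Wnt-low AE belonged to Hpgd, which degrades prostaglandins, at 6.69 and 4.62 CPM against 50.7 and 45.5 CPM, Madcam1, Gpihbp1, Stc1, Ly6h, Tinagl1, Igfbp3, Ssu2, Kcne3, Gap43, Cdc42ep2 and Tmem255a. Igfbp3, a carrier of insulin-like growth factors, was at 72.3 and 92.4 CPM against 418 and 454 CPM. Gpihbp1, which anchors lipoprotein lipase to capillaries, was at 6.42 and 6.98 CPM against 37.1 and 39.4 CPM, and the potassium channel subunit Kcne3 at 29.1 and 46.1 CPM against 176 and 193 CPM. Igfbp3 and Kcne3 are also on the list of tip cell genes, whose median ratio was -0.23 and 0.11 and so differed in sign between the libraries.

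**Figure D2:**
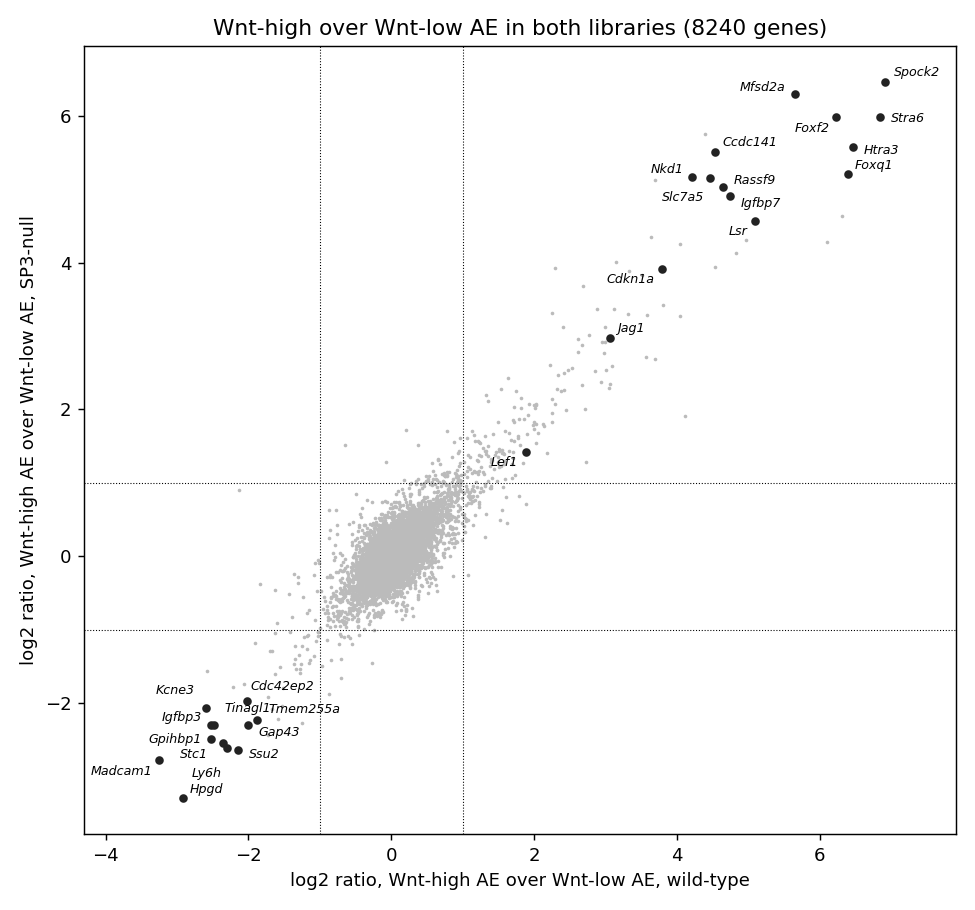
Log2 ratio of Wnt-high over Wnt-low AE in the wild-type (x axis) and SP3-null library (y axis) for 8240 genes, with genes without a UMI in a class at a floor of 3 UMIs and dotted lines at a log2 ratio of 1 in either direction. Spock2, Mfsd2a, Stra6, Foxf2, Htra3 and Foxq1 lie at the upper right and Hpgd and Madcam1 at the lower left.

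Cells within Wnt-high AE varied widely in the barrier program. With cells thinned to 5000 UMIs, 388 wild-type and 493 SP3-null cells remained and 79 and 81 shallower cells were left out. Summed over 22 barrier genes, without Slc2a1, Cldn5, Abcg2, Sox17, Cgnl1 and Lef1, the median cell held 4 UMIs in the wild-type and 6 in the SP3-null library. The highest cells held 69 and 53 UMIs, and the variance was 7.01 and 5.40 times the mean. In Wnt-low AE the median was 1 UMI in both libraries. Summed over 22 Wnt feedback and target genes, without Ccnd1, Cd44, Id2, Tcf7l2 and Bambi, the median cell held 2 UMIs in either library, and the variance was 1.24 and 1.26 times the mean. No UMI of these Wnt genes was found in 14.2% of wild-type and 11.8% of SP3-null Wnt-high AE cells, against 56.3% and 58.8% of Wnt-low AE cells and 26.4% and 25.1% of Wnt-high VE cells. The barrier sum spread much further among the cells than the Wnt target sum did, in both libraries.

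The barrier sum ran with the sum over arterial genes across cells, with Spearman's rho of 0.22 over 388 wild-type and 0.34 over 493 SP3-null cells, and against the sum over DNA replication genes, with -0.27 and -0.32. With the Wnt target sum it had a rho of 0.17 and 0.18. The cells of a library share their capture and these sums rest on few UMIs, so the values are descriptions only. Mitosis genes had a median of 5 UMIs in wild-type and 3 UMIs in SP3-null Wnt-high AE cells, with 15.2% and 21.7% of cells at 0.

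**Figure D3:**
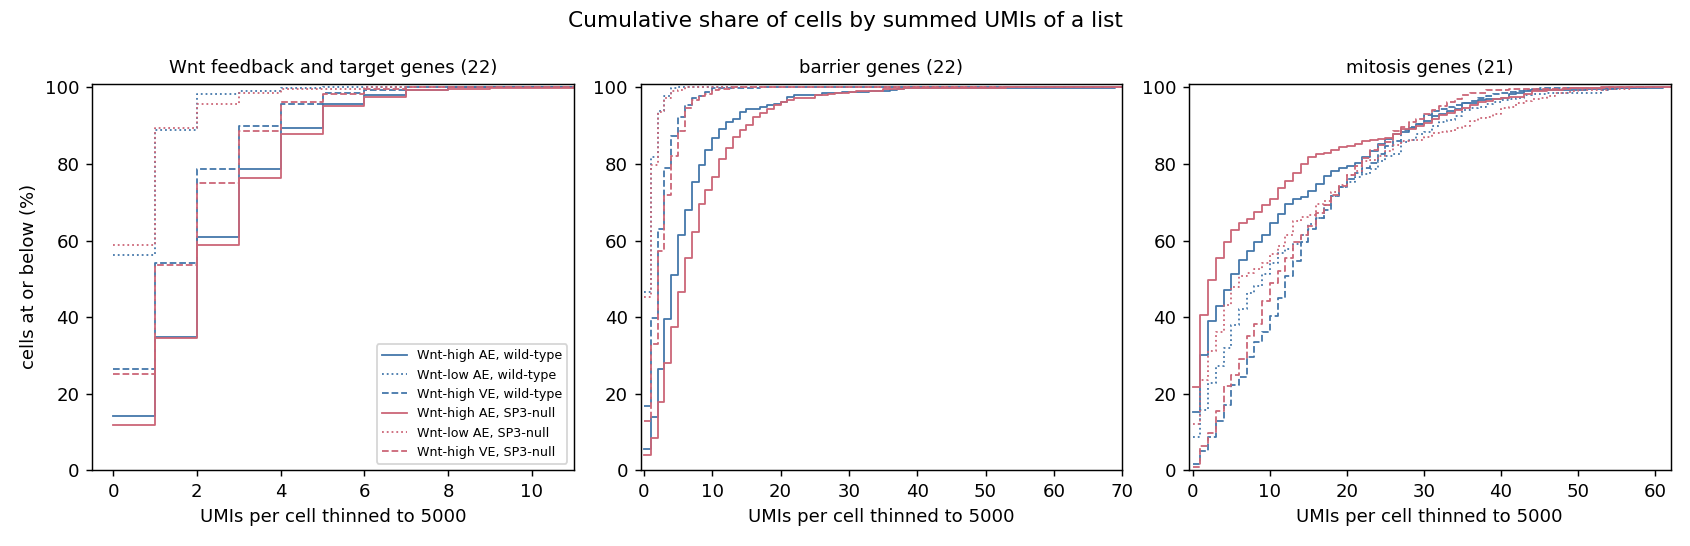
Cumulative share of cells (%) by the summed UMIs of Wnt feedback and target genes, barrier genes and mitosis genes in cells thinned to 5000 UMIs, for Wnt-high AE (solid), Wnt-low AE (dotted) and Wnt-high VE (dashed), in blue for wild-type and red for SP3-null. The barrier curves of Wnt-high AE reach furthest to the right, to 69 and 53 UMIs, while its mitosis curves start highest, with 15.2% and 21.7% of cells at 0.

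The SP3-null and wild-type libraries were then compared within Wnt-high AE. The targeted gene, Sp3, stood at 45.7 and 35.6 CPM, a log2 ratio of -0.36 (-0.59 to -0.14), and was below 0 in all 9 classes. The sources used here do not give how much of Sp3 the allele removes, and 3' reads of Sp3 therefore do not check the genotype. Of 8715 genes that reached 100 UMIs in the class, 127 (1.46%) were higher and 264 (3.03%) lower in the SP3-null library by at least 0.5 log2 units, around a median of -0.03. Other measures differed as well. Xist was at 442 and 593 CPM (log2 ratio 0.42) and 4 Y-linked genes summed to 69.6 and 60.9 CPM (-0.19), and embryonic globins were higher in the SP3-null class. Their part in the ratios below was not tested.

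Among the 12 highest ratios, Slc2a3, the high-affinity glucose transporter GLUT3, stood at 5.32 and 20.1 CPM (log2 ratio 1.91, 1.41 to 2.45) and Vill, a villin-like actin-binding protein, at 4.09 and 17.6 CPM (2.10, 1.53 to 2.72). Both were above 0 in all 9 classes. Car4 stood at 7.23 and 27.3 CPM (1.91, 1.48 to 2.37), and a Car4 UMI was found in 8.35% and 23.7% of cells. Tmem100, an endothelial gene downstream of BMP9 signaling that is high in conflux AE, was at 3.96 and 15.1 CPM (1.93, 1.34 to 2.56). Ackr2, a scavenger receptor for chemokines, was at 5.05 and 11.4 CPM (1.17, 0.62 to 1.76) and had its highest level of all classes in Wnt-high AE. Isg15, a ubiquitin-like protein induced by interferon, had the highest ratio, at 2.46 and 11.7 CPM (2.25, 1.52 to 3.06), and 3 cells held 24 of its 104 SP3-null UMIs. The others were Cyth4 (1.77), Platr5 (1.60), Proser2 (1.29), Il2rg (1.21), Ahnak (1.11) and Entpd1 (1.10). For Il2rg, 7 of the 9 classes lay below 0, so that its higher level was not shared with most classes.

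The lowest ratio was that of Cpxm1, a carboxypeptidase-like secreted protein, at 13.4 and 3.60 CPM (log2 ratio -1.89, -2.52 to -1.30), below 0 in all 9 classes. Plpp2, a lipid phosphate phosphatase, was at 13.9 and 5.86 CPM (-1.25, -1.76 to -0.75) and had its counting interval below 0 in all 9 classes. Cd24a, a glycosylated surface protein, was at 62 and 27.1 CPM (-1.19, -1.42 to -0.96), the most abundant of the 12 lowest. The drug-metabolizing enzymes Mgst1 (-1.56) and Tpmt (-1.46) and the lipid enzyme Chpt1 (-1.28) were also among them, with Nfkbiz (-1.35), Tmem158 (-1.34), Cpne2 (-1.31) and Csn3 (-1.20). Hist1h2ab (-1.50) and Eif3j2 (-1.49) have near-identical copies in the genome and are uncertain. Tpmt, Chpt1 and Eif3j2 were below 0 in all 9 classes, which come from the same 2 libraries and do not replicate each other.

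**Figure D4:**
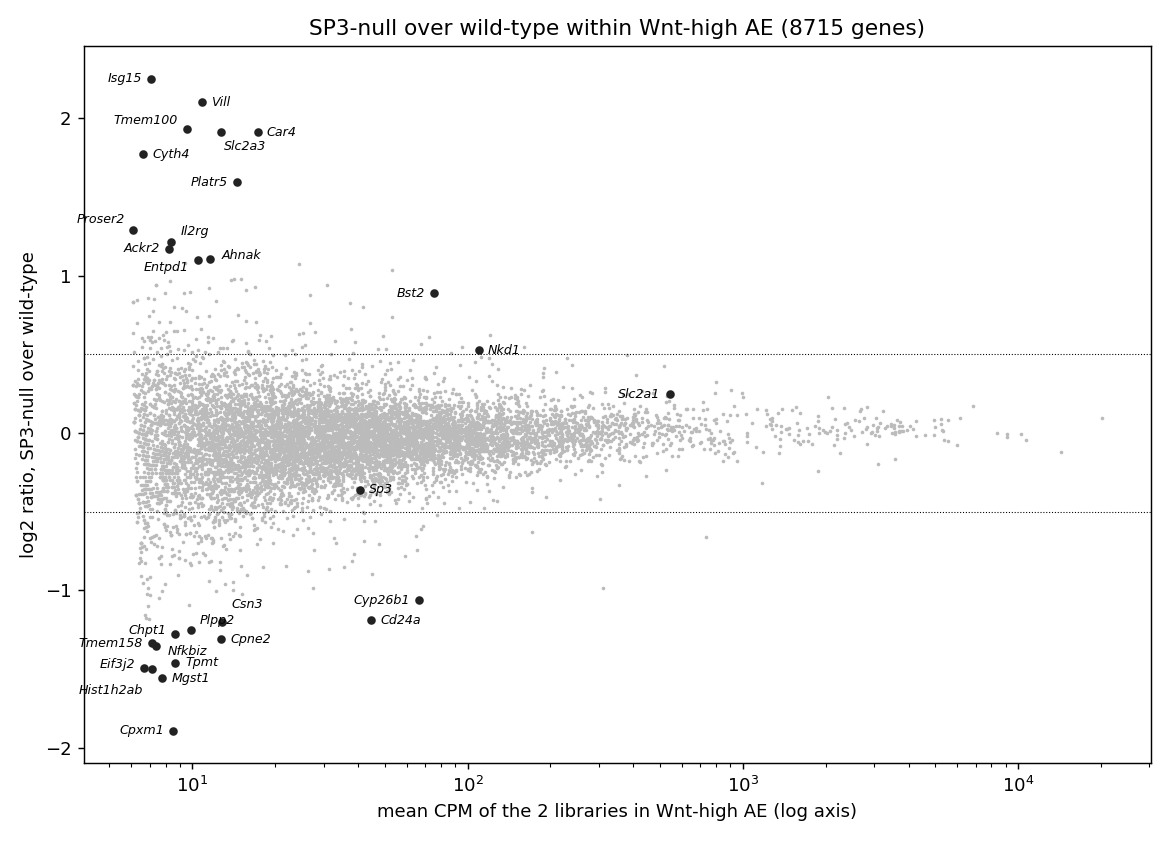
Log2 ratio of SP3-null over wild-type within Wnt-high AE against the mean CPM of the 2 libraries (log axis) for 8715 genes, with dotted lines at 0.5 in either direction. Most labelled genes lie below 30 CPM, where ratios spread most, while Nkd1 (0.53) and Cyp26b1 (-1.06) stand out at higher levels.

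Wnt target genes showed no common direction between the libraries. Of 15 members with at least 50 UMIs, 7 were above 0, 1 passed 0.5 and 2 passed -0.5, against 42.2%, 2.35% and 4.67% of all 9875 genes, with a median log2 ratio of -0.09 against -0.04 over all genes. Nkd1 was the member past 0.5, at 0.53 (0.39 to 0.67), followed by Tnfrsf19 at 0.35 (0.14 to 0.55). Nkd1 also had a higher level in SP3-null Wnt-high VE, and its ratio was above 0 in 7 classes and below 0 in 2. In Wnt-low AE Nkd1 was at 4.87 and 3.60 CPM on 36 and 19 UMIs. The intervals of these levels overlapped, at 3.41 to 6.74 and 2.17 to 5.63 CPM. Lef1 (0.08, -0.02 to 0.19), Axin2 (0.03, -0.30 to 0.37) and Tcf7 (-0.11, -0.32 to 0.11) had intervals that included 0. Myc was at 8.19 and 4.28 CPM (-0.94, -1.56 to -0.33), and Trabd2b at 4.23 and 2.59 CPM (-0.71, -1.55 to 0.12). Of the feedback genes named here, Nkd1 alone had a higher level past 0.5.

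Of 11 measured Wnt receptors and co-receptors 3 were above 0, with a median of -0.14. Fzd1 was at 6.55 and 12.2 CPM (0.89, 0.39 to 1.41), while Fzd10 was at 79.6 and 57.1 CPM (-0.48, -0.65 to -0.30). Of 18 measured genes of the intracellular beta-catenin pathway none passed 0.5 in either direction, and the median was -0.03. The co-repressor Tle4 had the highest ratio among them, at 38.5 and 48.3 CPM (0.33, 0.11 to 0.55), and Tcf7l1 the lowest, at 11.7 and 9.46 CPM (-0.31, -0.76 to 0.14).

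Barrier genes were higher in the SP3-null class. Of 25 measured members 20 were above 0 and 7 passed 0.5 (2.35% of all genes did), while none passed -0.5, and the median was 0.22. After Car4, members past 0.5 included Slco1c1, a thyroid hormone transporter (4.37 and 7.21 CPM, 0.72, 0.09 to 1.38), Slc38a3, a glutamine transporter (11.9 and 19.5 CPM, 0.71, 0.33 to 1.10), Abcb1a (13.9 and 21.4 CPM, 0.62, 0.27 to 0.98), Mfsd2a (20.3 and 29.7 CPM, 0.55, 0.25 to 0.85) and Itm2a (130 and 190 CPM, 0.54, 0.43 to 0.66). The abundant transporters Slc2a1 (0.25, 0.18 to 0.31), Slc3a2 (0.29, 0.20 to 0.39), Slc7a5 (0.22, 0.10 to 0.34) and Tfrc (0.21, 0.11 to 0.31) had smaller ratios with intervals above 0. The junction protein Cldn5 went the other way, at 929 and 837 CPM (-0.15, -0.20 to -0.10), as did Cgnl1 at 130 and 107 CPM (-0.28, -0.41 to -0.15). The medians of the same list were 0.03 in Wnt-low AE, 0.10 in Wnt-high VE and 0.47 in conflux AE. Without cells that held 2 or more erythroid, macrophage or neural UMIs, a filter that removed 74.3% and 69.2% of the cells, Mfsd2a stood at -0.39. This filter counts UMIs not scaled to a cell's depth, and Nes made up most of the neural sum.

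Arterial genes were near their wild-type levels, with a median log2 ratio of -0.02 over 19 measured members. Cxcl12, a chemokine that draws CXCR4-bearing cells, was at 19.8 and 30.8 CPM (0.64, 0.34 to 0.94), and 8430408G22Rik, also called Depp1, at 26.3 and 39.5 CPM (0.59, 0.33 to 0.85). Hey2 was at 8.33 and 5.75 CPM (-0.54, -1.10 to 0.03). Among venous genes Nr2f2 stood at 50.2 and 39.0 CPM (-0.37, -0.58 to -0.15) and Vwf, von Willebrand factor, at 38.9 and 59.7 CPM (0.62, 0.41 to 0.83), with a median of -0.08 over 8 members. Pan-endothelial genes had a median of -0.08, and none of 20 passed 0.5. Tip cell genes had a median of 0.34 over 14 members, with Lcp2 (1.00), Kcne3 (0.66) and Adm (0.53) past 0.5.

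Genes induced by low oxygen were higher. Of 19 measured members 15 were above 0 and 6 passed 0.5, against 42.2% and 2.35% of all genes, none passed -0.5, and the median was 0.28, against 0.32 in Wnt-low AE, 0.24 in Wnt-high VE and 0.33 in conflux AE. After Slc2a3, the members past 0.5 were Ankrd37 (26.9 and 47.7 CPM, 0.83, 0.58 to 1.08), the kinase Pdk1 (30.4 and 52.9 CPM, 0.80, 0.57 to 1.04), the oxygen sensor Egln3 (0.60, 0.13 to 1.08), Adm (0.53, 0.33 to 0.74) and Ddit4 (0.51, 0.14 to 0.89). Pdk1 lies 1.03 Mb from Sp3 on chromosome 2, and the part of this position in its ratio was not tested. Ldha, lactate dehydrogenase, stood at 709 and 889 CPM (0.33, 0.28 to 0.38). Glycolysis genes, which overlap this list, had a median of 0.22 over 15 members, against 0.03 in Wnt-low AE and 0.20 in Wnt-high VE. Within glycolysis Ldhb was lower, at 9.83 and 5.52 CPM (-0.83, -1.39 to -0.29). The hypoxia list had a like median in each of the 4 classes, Wnt-high AE included.

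Interferon-stimulated genes had the largest median of the lists described here apart from the globins. All 9 measured members were above 0, 7 passed 0.5 (2.35% of all genes), and the median was 0.89. It was 0.21 in Wnt-low AE, 0.20 in Wnt-high VE and 0.40 in conflux AE, where 6 members each were measured. The median in Wnt-high AE thus covers more genes, and a comparison over the same members was not made. Members were taken by UMIs summed over both libraries. Some reached the minimum mainly through the SP3-null library, such as Isg15 with 18 and 104 UMIs, so the higher levels are partly built in. Bst2, which tethers budding viruses to the membrane and is the most abundant of those past 0.5 after Ifitm3, was at 53.1 and 98.2 CPM (0.89, 0.71 to 1.06), and Ifitm3 at 77.5 and 113 CPM (0.55, 0.40 to 0.70). Rtp4 (1.36 and 6.65 CPM, 2.28, 1.30 to 3.42) and Oasl2 (1.91 and 6.08 CPM, 1.67, 0.80 to 2.63) rested on 10 and 14 wild-type UMIs. Ifitm2 was level at 295 and 297 CPM.

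HOX genes, which encode position along the body axis, were lower. All 8 measured genes of groups 6 to 13 were below 0, with a median of -0.58, and 6 passed -0.5, as 4.67% of all genes did. Hoxa10 was at 8.19 and 3.27 CPM (-1.33, -2.02 to -0.66), Hoxb9 at 16.5 and 9.91 CPM (-0.74, -1.15 to -0.33), Hoxb8 at 24.3 and 15 CPM (-0.70, -1.03 to -0.37) and Hoxa9 at 20.7 and 13.6 CPM (-0.61, -0.96 to -0.25). All 6 measured genes of groups 1 to 5 were also below 0, with a median of -0.36, led by Hoxb3 at 9.28 and 4.17 CPM (-1.15, -1.77 to -0.56) and Hoxb5 at 7.37 and 3.83 CPM (-0.94, -1.61 to -0.30). In thinned cells, no HOX UMI was found in 36.6% of wild-type and 58.6% of SP3-null Wnt-high AE cells. The medians of groups 6 to 13 were -0.37 in Wnt-low AE, -0.42 in Wnt-high VE and -0.63 in conflux AE, so that the lower levels were shared by these classes.

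Cell cycle lists had medians below 0. DNA replication genes had a median of -0.25 with 20 of 21 members below 0 and 3 past -0.5, and mitosis genes one of -0.18 with none past 0.5 in either direction. Of all 9875 genes 42.2% were above 0 and 4.67% passed -0.5, around a median of -0.04. Over the alternatives the mitosis median ranged from -0.75 to -0.13, with -0.43 where cells were weighted alike and -0.63 in cells with 5000 to 20000 UMIs. DNA replication genes had a like median in Wnt-low AE (-0.20) and one above 0 in Wnt-high VE (0.08). Cdkn1a stood at 163 and 212 CPM (0.38, 0.28 to 0.49) and Cdkn1b, p27, at 30.7 and 40.3 CPM (0.39, 0.15 to 0.64). Of 13 immediate early and heat shock genes 4 passed -0.5, against 4.67% of all genes, among them Fosb at 8.60 and 3.27 CPM (-1.40, -2.08 to -0.74), Egr1 at 18.4 and 9.58 CPM (-0.94, -1.35 to -0.54) and Fos at 40.7 and 22.3 CPM (-0.87, -1.13 to -0.60), while Jun was level at 295 and 301 CPM.

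**Figure D5:**
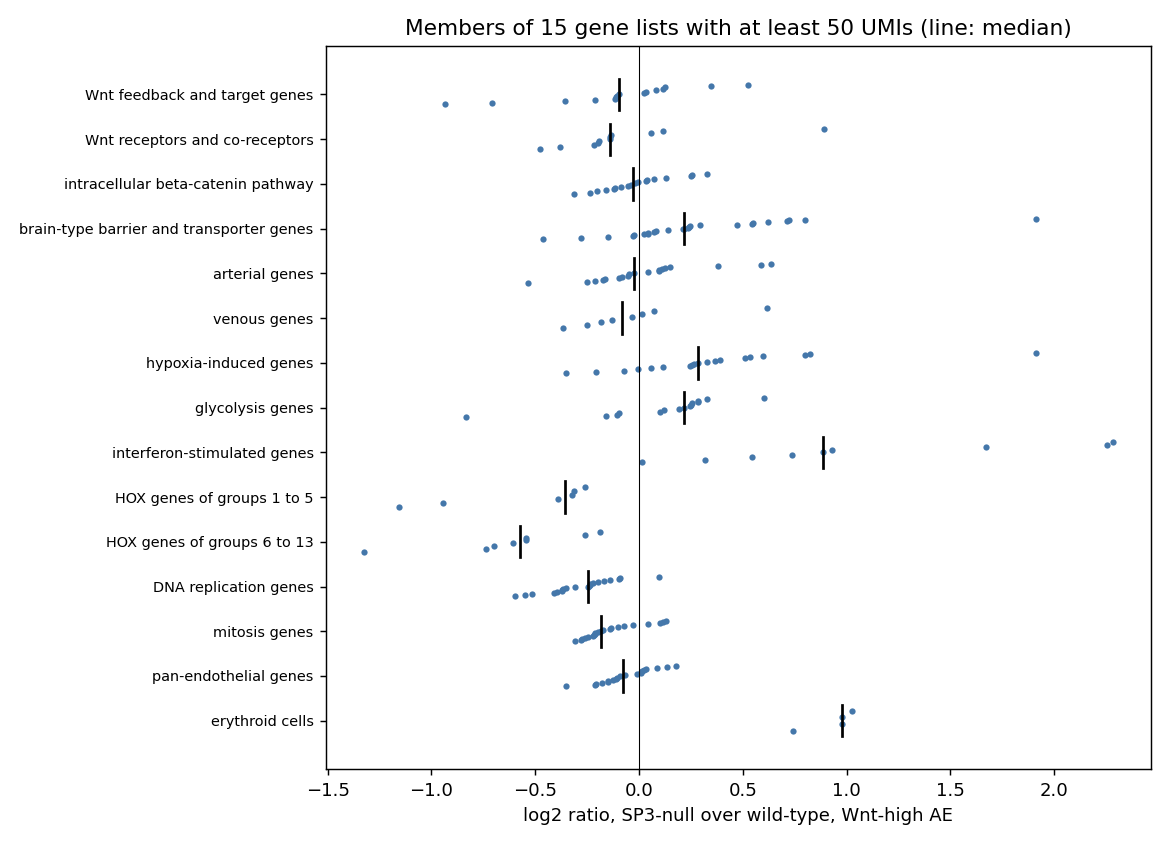
Log2 ratio of SP3-null over wild-type in Wnt-high AE for the members of 15 gene lists with at least 50 UMIs over both libraries, 1 point per gene with a line at the median. All 9 interferon-stimulated genes and 4 globins lie above 0 and all 14 HOX genes below 0, while Wnt feedback and target genes lie on both sides with a median of -0.09.

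For some genes the ratio between the libraries was not the same in Wnt-high and Wnt-low AE. Cyp26b1, which breaks down retinoic acid, stood at 89.8 and 43.0 CPM in Wnt-high AE (-1.06, -1.25 to -0.88) but 24.2 and 26.4 CPM in Wnt-low AE (0.12, -0.21 to 0.45). The difference of the 2 ratios was -1.18 (-1.55 to -0.82). In Wnt-high VE Cyp26b1 was at 60.7 and 43.2 CPM. Csn3 (-1.33, -2.01 to -0.64), Rab3a (-1.19), Gprc5a (-1.13) and Gpkow (-1.13) had like differences on fewer UMIs. In the other direction stood Il2rg (1.40, 0.62 to 2.19) and Entpd1, the ectonucleotidase CD39 (1.35, 0.62 to 2.07). All of these genes were picked as extremes of this same difference, among genes with at least 100 UMIs in each class. Their intervals therefore lie away from 0 partly by this choice. The intervals cover counting error only, and no replicate library bears on them.

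The GC box was less frequent in promoters of genes higher in the SP3-null class. Of 144 windows of genes with a ratio of at least 0.5, 42.4% held GGGCGG, against 64.6% of 254 windows of genes at -0.5 or lower and 60.9% of the 8808 windows of all genes with at least 100 UMIs in the class. The TCF/LEF core was in 15.3% and 8.66% of these windows, against 9.97%. These are shares of letters in 250 bases, and genes near the minimum of UMIs pass a fold more easily, so that they describe the lists without a test.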

How the data were processed

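Single-cell RNA-seq was performed on 1 wild-type and 1 SP3-null library. The authors aligned reads to mm10 (GRCm38) with Cell Ranger (version not given in the sources used here), dropped barcodes short of 1000 UMIs and 1000 genes, took out contaminants such as erythroid progenitors, and gave each cell the class held by most of its 3 neighbours in a reference map. The deposited matrix holds unnormalized UMI counts. A deposited cell table lists library, class, total count and the fraction of mitochondrial UMIs that the authors computed. Its 2 other columns were not used. Matrix sums were 0 to 197 UMIs short of the totals in that table, which holds more arterial cells than the study lists. No doublet caller was run and no doublets were removed.

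UMIs were summed per class and library and divided by the class total. Intervals are exact Poisson for levels, conditional exact for ratios, Clopper-Pearson for shares and Newcombe for their differences. The study's proportion test takes cells as replicates and was not used. Genes were counted with at least 100 UMIs, and lists described with at least 50. Named are the 4 markers and Sp3, the 12 highest and lowest ratios between libraries and over Wnt-low AE, the 6 highest and lowest over Wnt-high VE, the 6 ratios each way that differ most from Wnt-low AE, list members with most UMIs or extreme ratios, and Wnt and barrier genes, and other genes were chosen after their values were seen. Some genes that the rule names are not reported here. Members and all 30 lists were chosen with earlier results of these data known. Promoter sequences and gene positions are those of RefSeq for GRCm38.p6, and a genome of another build was not used. The interval of the ratio was checked on simulated Poisson counts, the model that it assumes, so spread between cells was not covered. Alternatives were edgeR 4.0.16 TMM and DESeq2 1.42.0 size factors, other minimums, equal weight per cell, thinning, and filters on cells. Python 3.11.15, numpy 2.4.6, scipy 1.17.1, pandas 2.3.3, matplotlib 3.10.9 and R 4.3.3 were used.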

Additional observations from a re-analysis of the deposited data

Results flagged for a closer look

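Among the named genes, 4 had SP3-null over wild-type ratios on opposite sides of 0 in Wnt-high and Wnt-low AE. Both counting intervals lay away from 0. Other genes were not checked in this way, and all 4 had been named because these ratios differed most. The differences were not tested, since each genotype had 1 library. The embryonic alpha globin Hba-x stood at 0.98 (0.57 to 1.40) in Wnt-high AE and -2.06 (-2.51 to -1.64) in Wnt-low AE, a difference of 3.04 (2.46 to 3.62) on the log2 scale, and 3 cells held 61 of its 167 UMIs in SP3-null Wnt-high AE. The embryonic beta globin Hbb-y stood at 0.74 and -1.42, a difference of 2.16 (1.81 to 2.51), with 146 of 591 UMIs in 3 cells. Of 12 erythroid genes 4 and 3 were at 0 in Wnt-high AE, Gata1 among them in both libraries, and their sums were 56.8 and 97.4 CPM. Pkia, an inhibitor of protein kinase A, stood at 0.85 (0.28 to 1.44) in Wnt-high AE and -0.64 (-1.29 to -0.02) in Wnt-low AE, a difference of 1.49 (0.67 to 2.31). The noncoding RNA Lockd, transcribed beside Cdkn1b, stood at -0.51 (-0.91 to -0.12) and 0.62 (0.20 to 1.03), a difference of -1.13 (-1.68 to -0.58).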

How the results depend on the processing

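No test was made, so the alternatives show only how values move. No paired analysis was possible because each genotype has 1 library. Genes that passed 0.5 between libraries numbered 232 higher and 461 lower with the lower UMI minimum, 57 and 96 with the higher one, 1190 and 1678 with none, and 201 and 497 with each cell weighted alike, and 175 were lower with cells thinned. Genes past 1 against Wnt-low AE numbered 114 higher with the higher minimum, 442 and 171 with none, 79 and 20 with cells thinned, 41 and 11 without cells holding 2 or more erythroid, macrophage or neural UMIs (74.3% and 69.2% of the class), and 108 and 30 in cells with 5000 to 20000 UMIs. Without those cells the Wnt-high share of AE differed by 17.6 points (12.5 with all cells), DNA replication stood at -0.39, glycolysis at 0.37 and mitosis at -0.75, and Mfsd2a (-0.39), Tmem255a (0.36) and Pmp22 (-0.56) changed sign between libraries. That filter counts UMIs not scaled to a cell's depth. Against all cells the share of Wnt-high AE differed by 4.02 points. Mitosis stood at -0.43 with cells weighted alike, -0.29 thinned, -0.22 without the 5% deepest cells, -0.50 without cells with an erythroid UMI and -0.63 at 5000 to 20000 UMIs, where HOX groups 1 to 5 stood at -0.22. DNA replication was at -0.19 with TMM. Without cells with an erythroid UMI, the ratio between libraries of Gap43 was 0.069 and that of Pmp22 -0.12, and Pmp22 was at -0.11 with cells weighted alike. The last pair of cell filters was chosen after seeing the data. List medians ranged from 0.61 to 1.03 for interferon, 0.28 to 0.45 for hypoxia, 0.13 to 0.27 for barrier, -1.08 to -0.27 for HOX groups 6 to 13, -0.14 to 0.02 for Wnt targets and 0.12 to 0.39 for tip cell genes. Genes under about 5 CPM rest on few UMIs and few cells.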

Other observations

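Abundant genes, on which counting error is smallest, mostly held their level between the libraries. Of 1256 genes with at least 2000 UMIs in Wnt-high AE over both libraries, a view chosen after the values were seen, 1 was higher and 3 were lower by at least 0.5 log2 units in the SP3-null library. Itm2a, a membrane protein, was the higher one. The growth factor Mdk, midkine, stood at 412 and 208 CPM (-0.99, -1.07 to -0.90). The imprinted gene Peg3 stood at 208 and 135 CPM (-0.63, -0.74 to -0.52). The retinol receptor Stra6 stood at 77.9 and 72.3 CPM (-0.11, -0.27 to 0.06).

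Basement membrane genes were also compared with Wnt-high VE. All 12 measured members were higher in Wnt-high AE in both libraries, as were 46.3% of all genes, with medians of 0.73 and 0.89 on the log2 scale against 0.059 and 0.055 over all genes. Fn1, fibronectin, stood at 358 and 462 CPM against 211 and 254 CPM, while Col15a1 was at 45.2 and 44.6 CPM against 189 and 149 CPM in Wnt-low AE. Genes that respond to blood flow had medians of 0.34 and 0.53 over Wnt-high VE. Genes of the SP and KLF families had a median of -0.07 between the SP3-null and wild-type class, with Sp1 at 30.0 and 29.5 CPM (-0.02, -0.29 to 0.24).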
